A study of Rattus norvegicus with 6 samples.

Results

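The genes described here are 9 transcription factors of epithelia and bile ducts, namely Sox9, Foxa1, Foxa2, Onecut1, Elf3, Ehf, Klf5, Grhl2 and Hnf4a. They were chosen by symbol, through the array's platform annotation, and 7 of the 9 were named by at least 1 probe set, 13 probe sets in all of 31042. No probe set used here carried the symbol Sox9 or Grhl2, so these genes were not analysed here. RNA came from 6 rat Affymetrix arrays, 3 of the strain BDEsp-TDECC (TDECC) and 3 of the strain BDEsp-TDESM (TDESM). TDECC is a clonal strain of cholangiocarcinoma cells, a cancer of bile duct epithelium. TDESM is a clonal cancer-associated fibroblastic strain, named in the labels for its overexpression of Acta2, an actin typical of myofibroblasts. Both came from orthotopic tumours in young adult male Fischer 344 rats whose bile ducts had been inoculated with BDEsp cells, which are cholangiocytes that transformed spontaneously. The labels of all 6 arrays name the same 3-dimensional culture in collagen type I gel and the same TGF-beta inhibitors, SB 431542 and LY2157299, without saying which cultures received them. Each strain is 1 clone. Whether the arrays of a strain stem from different cultures is not given, so the p-values reflect spread among arrays that could be technical alone.

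Transcription factors of this kind keep epithelial and bile duct genes active. Foxa1 and Foxa2 are forkhead factors that open chromatin in foregut endoderm, and Onecut1 (Hnf6) and Sox9 act in the forming bile duct. Hnf4a is a nuclear receptor of hepatocytes and intestinal epithelium. Elf3 and Ehf are epithelium-specific ETS factors, Klf5 is a zinc finger factor of proliferating epithelium, and Grhl2 is a grainyhead factor that maintains epithelial junction genes. Factors of epithelial-mesenchymal transition (EMT) such as Snai1 and Zeb1 are known to repress epithelial genes.

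The strains carried the markers of their labels. All 6 epithelial markers (Krt7, Krt8, Krt18, Krt19, Epcam, Cdh1) were higher in TDECC and all 9 fibroblast markers were lower, by limma at an adjusted p of 0.05. The mean log2 level of the epithelial markers was 13.54 to 13.78 on TDECC arrays, against 4.79 to 4.93 on TDESM arrays. That of the fibroblast markers was 5.20 to 5.39 on TDECC arrays, against 13.04 to 13.13 on TDESM arrays. Of 8 leukocyte markers 0 passed, with mean levels of 5.11 to 5.61 on TDECC arrays and 5.03 to 5.26 on TDESM arrays. The endothelial markers numbered 7, of which 1 was higher and 0 lower. Of 4 mesothelial markers 1 was higher (Msln, also made by carcinomas) and 2 lower (Wt1 and Lrrn4). Wt1 averaged 4.08 in TDECC and 9.17 in TDESM. Mean levels of endothelial markers were 4.17 to 4.31 in TDECC and 4.20 to 4.23 in TDESM, and those of mesothelial markers 6.54 to 6.72 and, in TDESM, 6.28 to 6.41. Cd14 was the brightest leukocyte marker, at 10.39 in TDECC and 8.73 in TDESM, whereas Ptprc (CD45) stood at 3.68 and, in TDESM, 3.80. Their part in the results below was not tested. TDECC arrays correlated at 0.968 to 0.975 across genes, TDESM arrays at 0.995 to 0.998 and arrays of different strains at 0.787 to 0.823. The TDECC arrays therefore differed more among themselves. Values below are log2 expression unless a fold is named, and these are bulk samples, in which fewer cells of a type and less RNA per cell cannot be told apart.

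Elf3, Ehf, Klf5 and Foxa2 were higher in TDECC than in TDESM, while Foxa1, Onecut1 and Hnf4a did not pass the test. Elf3 differed 55.7-fold, Ehf 8.38-fold and Foxa2 2.56-fold. Klf5 differed 10.0-fold by its brightest probe set and 6.33-fold to 28.8-fold over its 4 probe sets, which lie on both sides of Ehf. Thus 4 of 7 measured factors (57.1%) were called higher and 0 lower, where 20.6% of all 14217 genes were called higher and 22.1% lower in TDECC. Their median difference was 1.40, the value of Hnf4a, against 0.00 over all genes. By probe set, 7 of 13 were called higher, against 19.0% of all probe sets. The same 7 had every TDECC array above every TDESM array, against 25.7% of all probe sets. Calls used limma (lmFit and eBayes, two-sided), Benjamini-Hochberg adjusted p-values over all genes or all probe sets, and a threshold of 0.05. An exact permutation test of 3 against 3 arrays cannot give less than p = 0.1, the value it gave for each of these 4 genes. All differences are relative to the median gene, since RMA brings the arrays to like distributions. Centred on the poly-A control transcripts instead, the median gene stood 1.22 higher in TDECC and all 13 probe sets passed, with Foxa1 at 1.31 and Onecut1 at 1.28, close to that shift.

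**Figure D1:**
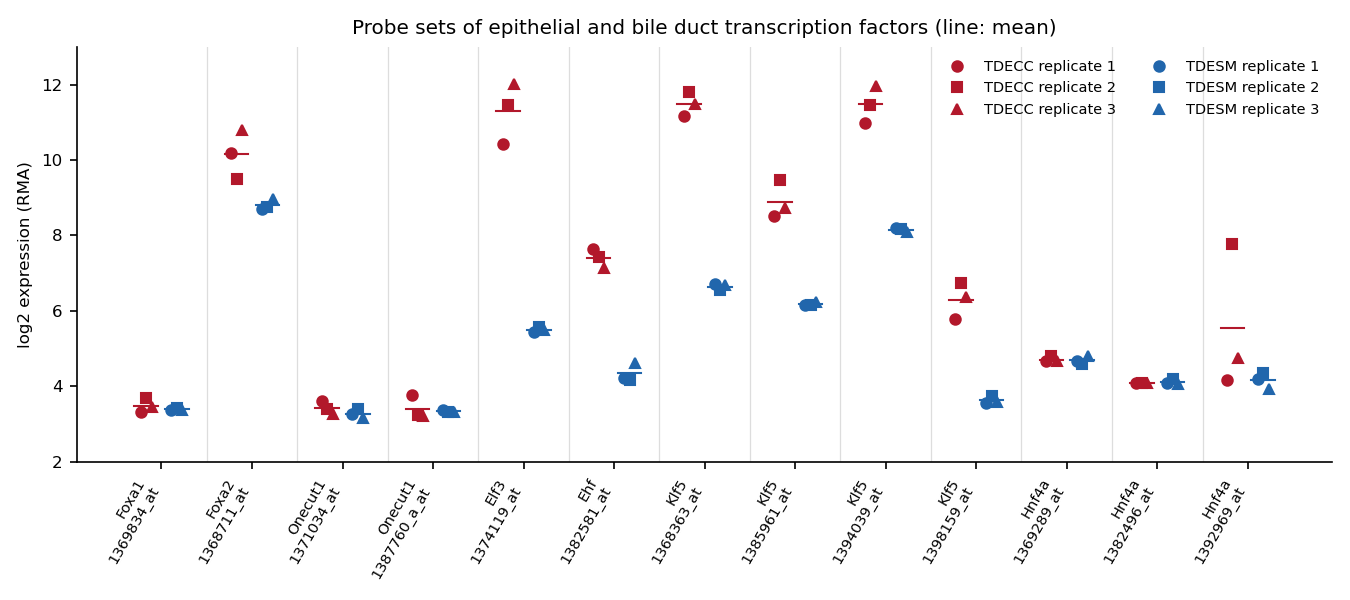
Log2 expression (RMA, vertical axis) of each of the 13 probe sets on the 3 TDECC arrays (red, left) and the 3 TDESM arrays (blue, right), with a marker shape per replicate and a line at each mean. The probe sets of Elf3, Ehf, Klf5 and Foxa2 separate the strains, and 1 Hnf4a probe set is high on TDECC replicate 2 alone, at 7.77.

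**Figure D2:**
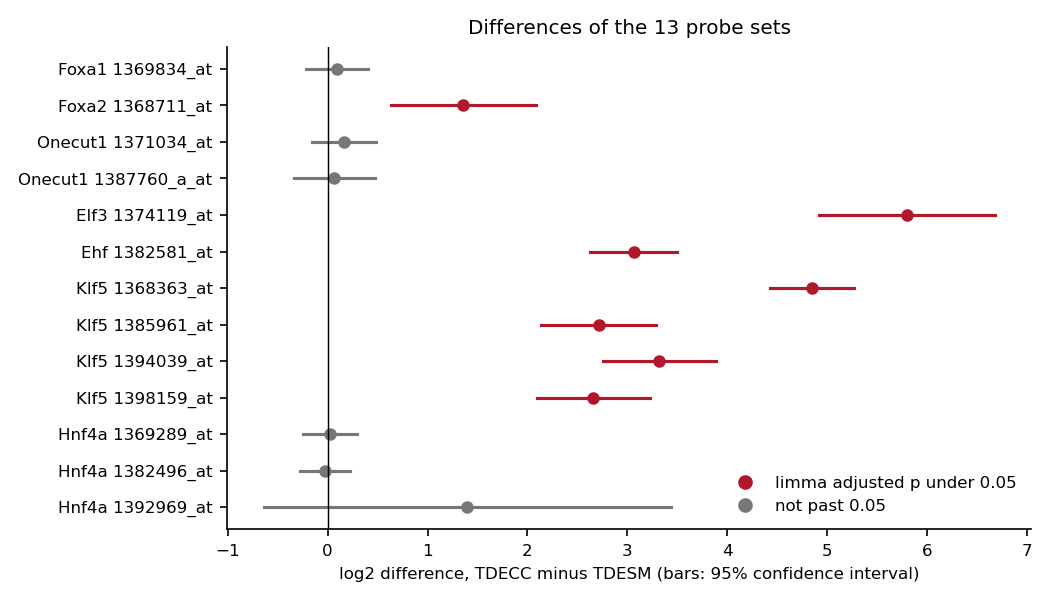
Log2 difference, TDECC minus TDESM (horizontal axis), of each of the 13 probe sets with its 95% confidence interval from the limma fit over all probe sets, red where the adjusted p was under 0.05. Elf3 lies at 5.80 and the 4 Klf5 probe sets between 2.66 and 4.85, while the intervals of the Foxa1, Onecut1 and Hnf4a probe sets include 0.

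The promoters of the 3 called factors for which a sequence was at hand are shown because these genes were high in the same strain. Each runs from 250 bases before to 50 bases after the gene start, from RefSeq on GRCr8. Capitals mark matches, on either strand, to 9 short motifs: AACNNGTT (grainyhead), TGTTTAC (forkhead), CACCTG (the E-box bound by ZEB and SNAI factors), GGGCGGG and CACCC (KLF and SP), CCGGAAG (ETS), ATCAAT (ONECUT), ACAAAG (SOX) and CAAAGTC (HNF4). The SOX and HNF4 letters can overlap where they share CAAAG, and CACCC, on either strand, can overlap CACCTG or GGGCGGG at its ends.
Elf3, chr13:49247037-49247336, minus strand: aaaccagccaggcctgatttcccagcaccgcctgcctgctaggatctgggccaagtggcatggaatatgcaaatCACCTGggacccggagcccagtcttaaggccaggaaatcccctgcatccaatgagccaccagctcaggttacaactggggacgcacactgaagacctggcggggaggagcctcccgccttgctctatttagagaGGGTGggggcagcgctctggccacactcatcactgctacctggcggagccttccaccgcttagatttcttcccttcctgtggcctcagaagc
Klf5, chr15:82471831-82472130, plus strand: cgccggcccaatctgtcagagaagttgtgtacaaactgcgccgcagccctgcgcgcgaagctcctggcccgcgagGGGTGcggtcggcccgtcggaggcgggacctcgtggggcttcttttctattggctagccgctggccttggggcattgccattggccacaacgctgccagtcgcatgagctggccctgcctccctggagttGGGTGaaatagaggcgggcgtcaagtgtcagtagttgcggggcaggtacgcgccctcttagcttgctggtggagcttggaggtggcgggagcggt
Foxa2, chr3:155927459-155927758, minus strand: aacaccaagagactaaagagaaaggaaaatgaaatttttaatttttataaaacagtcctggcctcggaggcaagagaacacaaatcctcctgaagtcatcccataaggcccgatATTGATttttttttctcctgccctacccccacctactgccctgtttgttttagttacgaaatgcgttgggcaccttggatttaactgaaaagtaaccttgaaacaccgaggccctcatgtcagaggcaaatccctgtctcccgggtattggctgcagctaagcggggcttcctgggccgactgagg
The Elf3 promoter held 1 CACCTG, which begins 176 bases before the start, and 1 CACCC match at 42 bases. The Klf5 promoter held 2 CACCC matches, at 175 and 45 bases, and the Foxa2 promoter 1 ATCAAT match at 136 bases. Of all 33469 promoters of this length, 18.8% held CACCTG, 54.9% CACCC and 8.06% ATCAAT, and the motifs with no match here were held by 3.78% to 22.7%. GC content was 59.3% for Elf3, 65.3% for Klf5 and 46.7% for Foxa2, where the median of all promoters was 51.7%. CpG dinucleotides stood at 0.31 (Elf3), 0.80 (Klf5) and 0.49 (Foxa2) of the number their base content gives, against a median of 0.39. None of the 9 motifs was common to all 3 promoters. The general promoter letters TATAAA and CCAAT were searched as well and are not in capitals: CCAAT was found in all 3 promoters and in 37.5% of all promoters, and TATAAA in that of Foxa2 and in 14.2% of all. A match describes the letters only.

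Elf3 read 10.42, 11.46 and 12.02 on the TDECC arrays, against 5.43, 5.57 and 5.50 on the TDESM arrays (probe set 1374119_at). The strains were far apart, and TDECC replicate 1 was the lowest of its group. The difference was 5.80 (SE 0.37, limma adjusted p = 2.30e-05), from means of 11.30 ± 0.81 in TDECC and 5.50 ± 0.07 in TDESM (SD, n = 3 each). The spread between TDECC arrays was at or above that of 95.2% of all genes, and the difference was larger than that spread.

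Ehf, the close relative of Elf3, read 7.64, 7.43 and 7.14 in TDECC, against 4.22, 4.17 and 4.62 in TDESM (probe set 1382581_at). Here TDECC replicate 1 was the highest of its group, unlike for Elf3, and the groups did not overlap. The difference was 3.07 (SE 0.19, limma adjusted p = 1.68e-05). The 95% intervals of the differences of Elf3 (4.92 to 6.68) and Ehf (2.62 to 3.51) did not overlap, though each was read by its own probe set and probe sets differ in response.

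Klf5 was read by 4 probe sets, and each was higher in TDECC. The brightest by mean, 1394039_at, which stands for the gene in the counts, read 10.99, 11.47 and 11.97 in TDECC, against 8.20, 8.17 and 8.09 in TDESM (difference 3.32, SE 0.24, limma adjusted p = 4.27e-05). Probe set 1368363_at read 11.17, 11.81 and 11.49 in TDECC, against 6.70, 6.54 and 6.69 in TDESM, a difference of 4.85 (28.8-fold, limma adjusted p = 1.87e-06). The remaining probe sets, 1385961_at and 1398159_at, differed by 2.72 and 2.66, at lower levels in both strains. All 4 were lowest on TDECC replicate 1 within that strain. The interval of 1368363_at, 4.43 to 5.27, lay above those of the other 3 probe sets, whose highest bound was 3.89, so the size of the Klf5 difference depends on the probe set by more than the spread between arrays. RefSeq lists 2 Klf5 pseudogenes in the rat, and whether a probe set also reads them was not tested.

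Foxa2 read 10.19, 9.50 and 10.80 in TDECC, against 8.71, 8.75 and 8.96 in TDESM (probe set 1368711_at). The groups did not overlap, and the fibroblastic strain was also well off the low end of the array. The difference was 1.36 (SE 0.31, limma adjusted p = 0.0109), with an interval of 0.62 to 2.09. Leaving out each array in turn gave 1.04 to 1.69, with limma adjusted p between 0.00134 and 0.0455. With every probe set tested, the call was lost without TDESM replicate 2 (1.33, limma adjusted p = 0.0525). It did not exceed a minimum log2 difference of 1 (limma adjusted p = 0.687).

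Foxa1, the other forkhead factor among the chosen genes, read 3.31, 3.68 and 3.44 in TDECC, against 3.36, 3.43 and 3.36 in TDESM (probe set 1369834_at). The groups overlapped. The difference was 0.09 with a 95% interval of -0.22 to 0.41 (limma adjusted p = 0.629), and without TDECC replicate 2 it was -0.01. Probe sets for trp, a bacterial transcript left out of standard Affymetrix poly-A controls, read 2.80 to 3.53 in TDECC and 2.87 to 3.23 in TDESM. The table has no detection calls, so Foxa1 was not called absent, and a difference at this low level may be compressed.

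Onecut1 stood at a similar low level by both of its probe sets. Probe set 1387760_a_at read 3.76, 3.23 and 3.21 in TDECC, against 3.37, 3.32 and 3.32 in TDESM, a difference of 0.06 with an interval of -0.35 to 0.47 (limma adjusted p = 0.807). Probe set 1371034_at read 3.61, 3.40 and 3.27 in TDECC, against 3.26, 3.39 and 3.16 in TDESM, a difference of 0.16 (limma adjusted p = 0.425). In both probe sets the highest array was TDECC replicate 1. The other TDECC arrays lay below every TDESM array in the first probe set, and in the second they read 3.40 and 3.27, against a highest TDESM value of 3.39. Without TDECC replicate 1 the first of these differences was -0.12.

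Hnf4a was read by 3 probe sets that did not behave alike. Probe set 1392969_at read 4.16, 7.77 and 4.74 in TDECC, against 4.19, 4.35 and 3.93 in TDESM. A single array, TDECC replicate 2, stood 3.03 above the next TDECC array, and TDECC replicate 1 lay within the TDESM values. The difference was 1.40 (SE 0.86, limma adjusted p = 0.246), and 0.29 without TDECC replicate 2 (limma adjusted p = 0.354). The TDECC spread, an SD of 1.94, was at or above that of 99.5% of genes. Probe set 1369289_at read 4.66, 4.80 and 4.66 in TDECC, against 4.66, 4.60 and 4.80 in TDESM. Probe set 1382496_at read 4.09 on every TDECC array, against 4.09, 4.20 and 4.07 in TDESM. On TDECC replicate 2 these last probe sets were no higher than the highest TDESM array, and their differences were 0.02 and -0.03 (limma adjusted p = 0.916 and 0.858). The mean of the 3 probe sets differed by 0.46 (limma adjusted p = 0.289).

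The high Hnf4a reading on TDECC replicate 2 was not alone on that array. On it 61 genes stood at least 2 above both other TDECC arrays, against 13 on TDECC replicate 1, 22 on TDECC replicate 3 and 0 on each TDESM array. Hnf4a ranked 27th among them by gap. The 6 largest gaps, picked after their values were seen, were those of Fabp4 (7.48), Cdh17 (6.14), Ly6al (5.10), Krt79 (4.71), Dmbt1 (4.53) and Muc13 (4.17). Cdh17 is an intestinal cadherin, and Muc13 and Dmbt1 are products of mucosal epithelium. The others, among them Fabp4 with the largest gap, are not described by tissue here. Whether the 61 genes share a tissue type was not tested. Cdh17 read 6.28, 12.63 and 6.49 in TDECC, against 4.77, 4.30 and 4.71 in TDESM, a pattern like that of Hnf4a at a wider range. Cdx2, the intestinal homeobox factor, did not share it: it read 8.90, 10.31 and 10.11 in TDECC, against 7.39, 7.51 and 7.63 in TDESM, with TDECC replicate 1 lower than the other TDECC arrays.

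**Figure D3:**
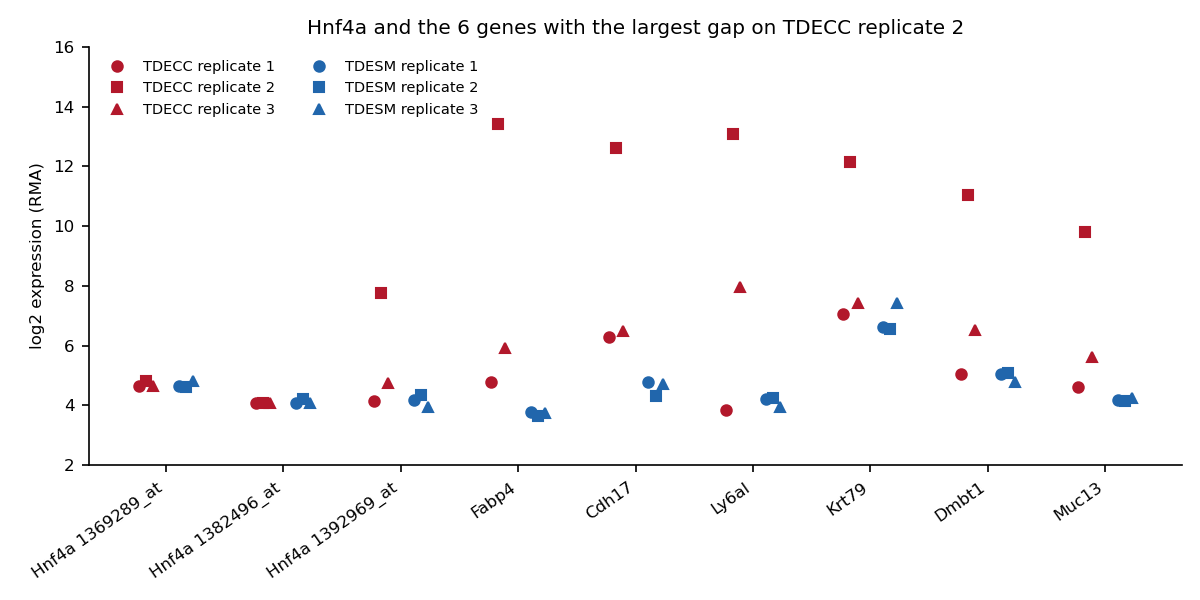
Log2 expression (RMA, vertical axis) on each TDECC array (red, left) and TDESM array (blue, right) of the 3 Hnf4a probe sets and of the 6 genes with the largest gap on TDECC replicate 2 (squares). That array reads 7.77 for Hnf4a probe set 1392969_at and 13.41 for Fabp4, while the other Hnf4a probe sets do not separate it.

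Among family relatives of the 9 factors, 8 of 18 measured genes were higher in TDECC and 1 was lower, with a median difference of 0.24 against 0.00 for all genes. With the mean of all probe sets of a gene the counts were 5 and 2. Relatives of the unmeasured Grhl2 led the group. Grhl3, a grainyhead factor of surface epithelium, read 10.47, 10.94 and 11.00 in TDECC, against 4.10, 4.13 and 4.10 in TDESM, a difference of 6.69 (SE 0.16, limma adjusted p = 3.17e-07). Grhl1 read 7.10, 8.87 and 7.23 in TDECC, against 4.66, 4.35 and 3.88 in TDESM (difference 3.44, limma adjusted p = 0.00112). These values do not stand in for Grhl2.

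In the KLF family, Klf15 differed by 2.92 (1.08 when its probe sets were averaged) and Klf3 by 2.39 (limma adjusted p = 7.39e-04 and 0.00126). Klf4, a factor of differentiating epithelium, read 9.40, 12.20 and 11.98 in TDECC, against 9.16, 9.16 and 9.10 in TDESM. TDECC replicate 1 lay close to TDESM, and the difference of 2.05 passed by less than rounding shows (limma adjusted p of 0.05). That call was lost without TDECC replicate 2 or 3 (limma adjusted p = 0.131 and 0.138) or without any 1 TDESM array (0.121 to 0.135), and also with cyclic loess, centring on ribosomal protein genes, averaged probe sets, every probe set tested, or trend and robust eBayes (0.0521 to 0.0661). Elf1, a broadly expressed ETS factor, was the relative that was lower, at 6.62, 6.90 and 7.49 in TDECC, against 8.45, 8.33 and 8.73 in TDESM (difference -1.50, limma adjusted p = 0.00212). Centred on the poly-A controls it differed by -0.28 and did not pass.

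The nearest relatives of the ETS, forkhead, ONECUT and SOX factors did not pass. Elf5 and Spdef, the other epithelium-specific ETS factors, differed by -0.06 and 0.11, Foxa3 by -0.10, Onecut2 by 0.22 and Sox10 by -0.17 (limma adjusted p between 0.221 and 0.768). Their 95% intervals reached no higher than 0.53. Mean levels were low in both strains, from 3.42 (Elf5) to 5.15 (Spdef) in TDECC and 3.48 to 5.04 in TDESM, so these differences may be compressed. Centred on the poly-A controls, Elf5, Foxa3 and Sox10 turned positive, at 1.16, 1.12 and 1.05, below the median gene's 1.22. Sox8 and Hnf4g were not measured by a named probe set and were not analysed here.

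Of 18 other regulators of epithelium and foregut, 8 were higher in TDECC and 1 lower (median 0.41). Esrp1, an epithelial splicing regulator, read 10.81, 10.98 and 10.51 in TDECC, against 5.12, 5.11 and 5.15 in TDESM (difference 5.64, limma adjusted p = 3.94e-07). Pdx1, a homeobox factor of pancreas and duodenum, differed by 3.68, Sox4 by 2.82 (1.90 when its probe sets were averaged) and Cdx2 by 2.26. Tfap2a, an AP-2 factor of surface ectoderm and neural crest, was lower, at 4.26, 4.50 and 3.90 in TDECC, against 7.81, 7.58 and 7.65 in TDESM (difference -3.46, limma adjusted p = 7.02e-06).

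**Figure D4:**
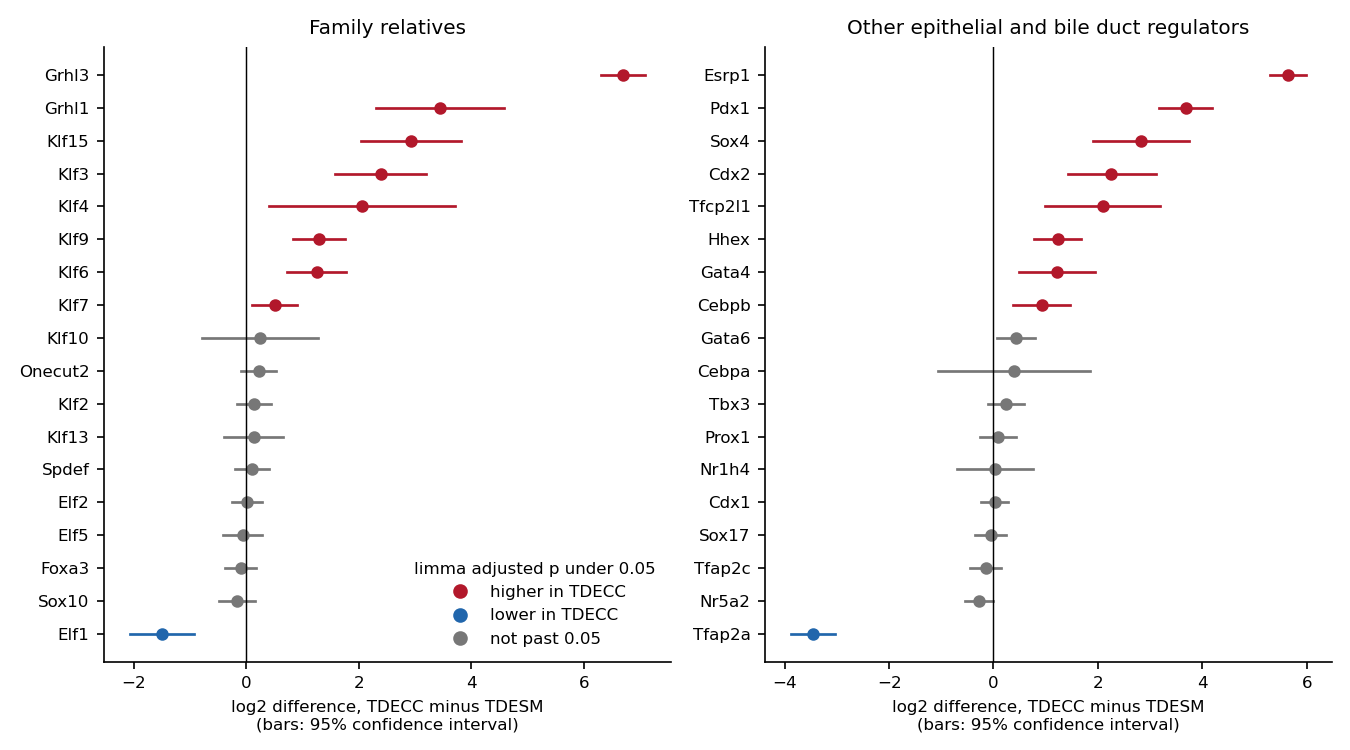
Log2 difference, TDECC minus TDESM (horizontal axis), with its 95% confidence interval, of 18 family relatives (left panel) and 18 other epithelial and bile duct regulators (right panel), coloured by the limma call. Grhl3 at 6.69 and Esrp1 at 5.64 lie farthest to the right, and Elf1 at -1.50 and Tfap2a at -3.46 are the called falls.

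Gene groups set beside these factors differed widely, and whether their genes depend on the factors was not tested. All 15 measured junction and epithelial surface genes, a group that includes known Grhl2 targets, were higher in TDECC, with a median difference of 6.11. Epcam, an adhesion protein, differed by 9.68, Cdh1 (E-cadherin) by 9.29 (4.79 when its probe sets were averaged), Ocln by 8.07 (6.60 averaged) and Cldn4 by 7.47, the last pair being tight junction proteins. The TDESM means of Epcam and Ocln, 3.20 and 3.18, lay within the range of the trp probe sets on TDESM arrays, 2.87 to 3.23. Those of Cdh1 and Cldn4, 3.48 and 3.52, lay a little above it. The sizes of these 4 differences may therefore be compressed and give no order. Of 15 keratin and secretory genes set beside Elf3 and Ehf, 10 were higher and 0 lower (median 4.57). They included Krt19 (10.76), Krt18 (10.21), Pigr (7.48), which carries antibodies across epithelium, and Ceacam1 (7.27, or 4.95 averaged). The TDESM means of Krt19, Krt18 and Pigr were low as well, at 3.58, 3.73 and 3.92, so these sizes may also be compressed. Krt7, Krt8, Krt18 and Krt19 here, and Epcam and Cdh1 among the junction genes, are the same readings used above as epithelial markers. They are not separate results. Several genes of this group other than the keratins varied between TDECC arrays, whereas the TDECC SDs of the keratins were 0.08 to 0.31. Tff1, Tff2 and Slpi differed by 2.62, 2.54 and 2.55 without overlap of the groups. They were not called, and their TDECC SDs were 2.53, 2.89 and 1.96. Agr2, a mucosal secretory chaperone picked after its values were seen, read 5.93, 11.51 and 12.74 in TDECC, against 3.97, 3.82 and 3.45 in TDESM.

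Of 10 bile duct and foregut genes set beside the Foxa and ONECUT factors, 4 were higher and 1 lower in TDECC (median 0.16). Tspan8 differed by 10.41, Cd24 by 8.97, Prom1 by 6.53 and Cftr, the chloride channel of bile duct secretion, by 4.58, while Spp1 (osteopontin) differed by -5.20. The TDESM mean of Tspan8, 3.03, was also within the trp range. Those of Cd24 and Cftr, 3.58 and 3.64, lay above it but were low, so these sizes may be compressed. Without TDECC replicate 3, with averaged probe sets or with the replicate block, 2 were lower. Hepatocyte genes that depend on Hnf4a mostly did not pass: of 17, 1 was higher, 1 lower and 15 neither (median 0.05). Apoc3 was lower by limma (-1.36, adjusted p = 7.81e-04; -0.14 centred on the poly-A controls). Serpina1 read 4.32, 6.38 and 5.97 in TDECC, against 3.98, 4.17 and 3.93 in TDESM (difference 1.53, limma adjusted p = 0.0429), and lost its call without TDECC replicate 2 or 3 (limma adjusted p = 0.103 and 0.118) or any 1 TDESM array (0.10 to 0.127), or centred on ribosomal protein genes (0.0525). On TDECC replicate 2, the array with the high Hnf4a reading, 5 of the 17 genes had their highest TDECC value, and 2 of these were also above every TDESM array. These were Serpina1 and Gjb1, a gap junction protein named after its values were seen, which read 5.68, 6.45 and 5.91 in TDECC, against 5.67, 5.68 and 5.68 in TDESM. Alb, on the other hand, read 4.25 on that array, against a highest TDESM value of 4.71.

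Cartilage genes, the classical targets of Sox9 in chondrocytes, split. Of 13, 0 were higher and 3 lower in TDECC (median -0.14). Col11a1, a minor fibrillar collagen chain, differed by -7.58 and Acan (aggrecan) by -5.63, whereas Col2a1, the main cartilage collagen, stood at 4.34 ± 0.25 in TDECC and 4.28 ± 0.01 in TDESM (SD, n = 3 each); this gene was singled out once its values had been seen. Comp differed by -0.71, a call lost without any 1 TDESM array (limma adjusted p between 0.0520 and 0.130) or centred on housekeeping genes (0.0684), and turned to 0.51 centred on the poly-A controls. Factors of EMT went the other way from the called epithelial factors. All 7 measured were lower in TDECC (median -2.90), and 5 centred on the poly-A controls or with a minimum log2 difference of 1. Among the 7 were Snai1 (-3.91), Prrx1 (-3.69, or -5.47 when its probe sets were averaged), Zeb1 (-3.06) and Twist1 (-2.90, or -4.62 averaged). Their order depends on the choice of probe set. The lists were written with earlier results of these samples known, so their counts are descriptions beside the 20.6% and 22.1% of all genes.

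**Figure D5:**
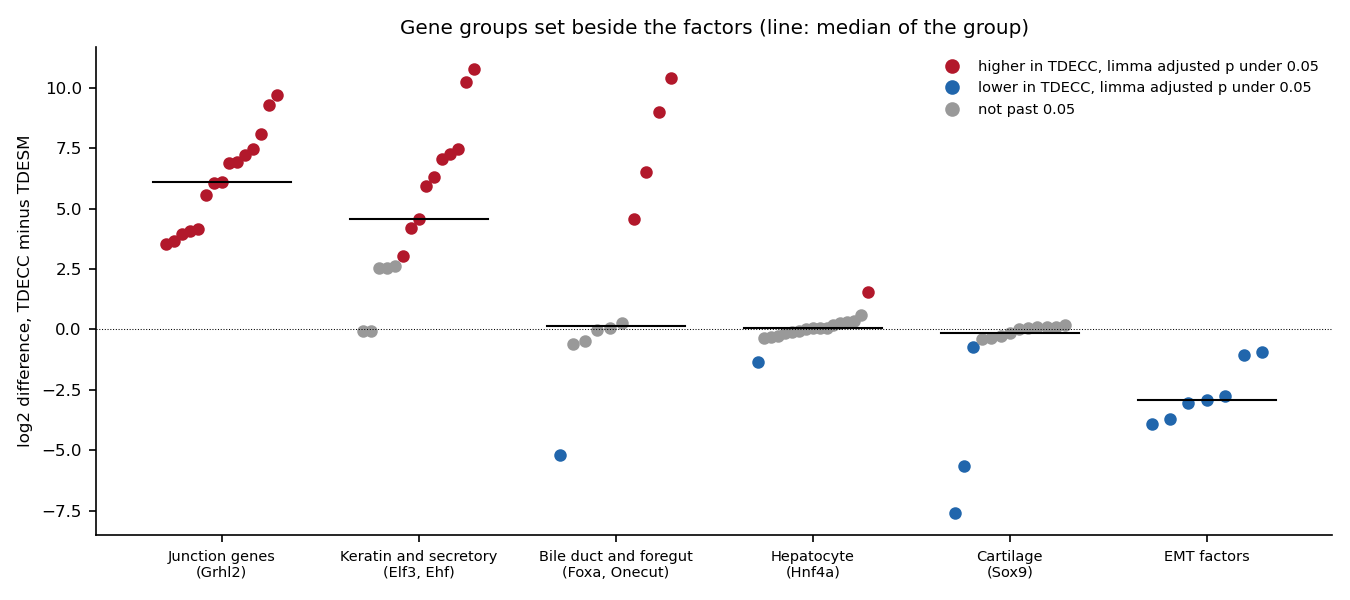
Log2 difference, TDECC minus TDESM (vertical axis), of each measured gene in 6 groups, coloured by the limma call, with a line at the median of each group. Junction genes all lie above 0 with a median of 6.11, hepatocyte genes gather near 0 with a median of 0.05, and EMT factors all lie below 0 with a median of -2.90.

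For each called factor, the 3 genes most like it were found by the root mean square distance between profiles over the 6 arrays, each profile centred on its own mean. For Elf3 they were Tnfrsf21, a death receptor (distance 0.14), Hs3st1, a heparan sulfate sulfotransferase (0.15), and Acss3 (0.21). Tnfrsf21 read 9.16, 10.19 and 10.64 in TDECC, against 3.85 to 4.01 in TDESM. For Ehf they were Kank3 (0.12), Als2cl (0.14) and Ccnd1, cyclin D1 (0.15). For Klf5 they were Mpzl2, an epithelial adhesion protein (0.12), Cdc14a (0.15) and Kcnk1, a potassium channel (0.18). For Foxa2 they were Rwdd2a (0.12), Vtcn1, an immune checkpoint ligand (0.17), and Nme3 (0.18). Rwdd2a read 5.53, 4.97 and 6.01 in TDECC, against 4.21, 3.96 and 4.44 in TDESM. These genes were picked for a like profile, so an array order shared with their factor follows from the choice. By the factors' own readings, the TDECC arrays stood in different orders for different factors. Replicate 1 was lowest for Elf3 and Klf5 and highest for Ehf. Replicate 2 was lowest for Foxa2 and highest for the Hnf4a probe set that varied.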

How the data were processed

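Expression was measured on 6 arrays. The values used are log2 expression as deposited, which the authors obtained with RMA (named in the submitters' processing notes without a version). All fits ran in R 4.3.3 and limma 3.58.1. The table has 31099 probe sets, of which 57 were controls, 20826 carried 1 symbol, 436 several and 9780 none. Entrez identifiers of 99.7% of named probe sets were found in RefSeq (GRCr8). For each gene the probe set of highest mean across arrays was kept (14217 genes, no filter on dim ones), and all probe sets were also fitted singly. The difference was TDECC minus TDESM with no replicate block. The limma step was tested on simulated data.

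The members and lists were chosen with earlier results of these data known. Named were all members, up to 4 called genes each way per list, the closest relatives of members and the 3 nearest profiles per called member. Alternatives were cyclic loess, 3 centrings, leaving out the dimmest 33.3% of genes, other summaries of probe sets, trend and robust eBayes, the replicate block, each array left out and a minimum log2 difference of 1. The number of arrays limits the precision.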

Additional observations from a re-analysis of the deposited data

How the results depend on the processing

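Elf3, Ehf and Klf5 kept their direction and call under every alternative run, with log2 differences of 5.44 to 6.24, 2.95 to 3.21 and 3.08 to 3.57 when the poly-A centring is set aside. Foxa2 lost its call with a minimum log2 difference of 1 (1.36, limma adjusted p = 0.687) and, in the fit of every probe set, without TDESM replicate 2 (1.33, limma adjusted p = 0.0525), where 6 member probe sets were higher. It kept its call under the other alternatives run. Centred on the poly-A controls, 7 members and 13 member probe sets were higher, and 10873 genes were called higher and 898 lower; Foxa1 (1.31), Onecut1 (1.28) and Hnf4a (2.62) then passed, with the same SE of 0.37 for each member, so those calls follow the size of the difference. The Hnf4a probe set 1382496_at, Elf5, Foxa3, Sox10 and Comp turned to 1.19, 1.16, 1.12, 1.05 and 0.51 there. With a minimum log2 difference of 1, 882 genes were higher and 1066 lower. Leaving out each array in turn, Foxa1 ranged from -0.01 to 0.18 and Onecut1 from -0.12 to 0.16. Onecut1 stood at -0.02 centred on ribosomal protein genes. Hnf4a probe set 1369289_at stood at -0.07 there and ranged from -0.03 to 0.08 leaving out each array. Probe set 1382496_at stood at 0.06 centred on housekeeping genes and ranged from -0.06 to 0.01 leaving out each array, and Elf5 stood at 0.02 and ranged from -0.15 to 0.06. The cause was not tested. Same-numbered arrays of the strains had correlations of deviations of -0.07, 0.02 and -0.14, and arrays of different number -0.14 to 0.15. With few arrays and little spread among those of TDESM, these values cannot decide whether the numbers pair the arrays. With the replicate block 2592 genes were higher and 2750 lower, and 4 members were called higher. Counts moved by more than 1.5 times in several lists. Among hepatocyte genes 0 to 16 were called higher, and among family relatives and among other regulators 4 to 17 each. The most were called under the poly-A centring.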
